A study of Homo sapiens with 12 samples.

Results

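The data described here are the 6 arrays of HK-2 cells exposed to a low dose of Kbr, 3 taken after 24 h and 3 after 48 h, out of 12 arrays in the series. They were chosen by their labels alone, and the 48 h array of each biological replicate number was set against the 24 h array of that number. HK-2 is an immortalized cell line of human proximal tubular epithelium. All cells were grown in a defined medium with EGF, hydrocortisone, insulin, transferrin and selenite, and were dosed close to confluence, 24 h after plating. The other 6 arrays are cells given the vehicle for 24 h (3 arrays) or 48 h (3 arrays), and they serve here as the background for time in culture. The concentration of Kbr is not given in the sources used here, and the cells are 1 line, so the replicates share 1 genotype. Total RNA was hybridised to Affymetrix arrays, and the values are deposited log2 expression values in which a difference of 1 is a 2-fold change. The question this comparison addresses is how the transcript profile under continued exposure moved from the first to the second day.

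Several textbook programmes frame the result. When amino acids run short or unfolded proteins collect in the endoplasmic reticulum (ER), kinases such as PERK phosphorylate the initiation factor eIF2, and translation of the transcription factor ATF4 rises. ATF4, with DDIT3 (also called CHOP) and ATF3, then raises genes of amino acid uptake, amino acid synthesis and tRNA charging. The sensors IRE1 and ATF6 act beside PERK and raise ER chaperones and the machinery that removes misfolded proteins. NRF2 is a transcription factor released from KEAP1 by electrophiles and oxidants, and it raises quinone reductase, glutathione and thioredoxin genes. Metallothioneins are small zinc and copper binding proteins whose genes follow the zinc sensor MTF1. The proximal tubule, where these responses are often studied, reabsorbs most of the filtrate and takes up many toxicants.

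Array medians lay between 2.91 and 2.99 in all 12 arrays. In the 6 treated arrays the ACTB 3′ minus 5′ control difference, a sign of RNA quality, ran from 0.748 to 0.975 at 24 h and from 0.779 to 1.07 at 48 h, and it was higher at 48 h in all 3 pairs. Of 15 named proximal tubule markers only SLC3A1, DPP4, GATM and PDZK1 passed the filter on low values, while at 24 h LRP2, CUBN and AQP1 had mean log2 values of 2.59, 2.10 and 2.44. All 6 general epithelial markers passed, with EPCAM at 12.96 at 24 h and 12.99 at 48 h. Of loop and distal tubule markers 1 of 7 passed, of collecting duct markers 1 of 8 and of podocyte markers 2 of 4, and 0 of these changed. No endothelial (0 of 6) or leukocyte marker (0 of 5) passed. Bulk RNA cannot tell fewer cells of a type from less RNA per cell.

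The treated 48 h array of replicate 3 stood apart from the other 2 arrays of its group. On the first principal component of the 6 treated arrays (58.7% of the variance), the 24 h arrays lay at -20.2, -15.6 and -26.0 in order of replicate number. The 48 h arrays lay at 32.2, 28.3 and 1.34, so replicate 3 sat between the times. Its correlation with the other 48 h arrays across tested genes was 0.982 and 0.987, against 0.990 between those. Its ACTB difference was the lowest of its group, as was that of its 24 h partner, and its median was within the range of the others. The part of array quality in its position was not tested. Overall counts of calls, and several list counts and values that move without this array, are therefore given with and without it. Other list counts are from all arrays, and some of these move by over 1.5 times without it.

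From 24 to 48 h of exposure, 1519 of 10665 tested genes (14.2%) were higher and 1754 (16.4%) lower, 3273 in all or 30.7% (limma with replicate number as a block, Benjamini-Hochberg adjusted p below 0.05). Counts of list members below are to be read beside the 14.2% higher and 16.4% lower of all genes. At least 2-fold changes were fewer, 118 higher and 135 lower. Genes of amino acid stress and of ER protein folding led the rises, and the 15 largest falls included TXNIP, SLN, MMP1, TM4SF4, TAGLN and EFEMP1. Among the called genes 3251 moved one way in all 3 pairs, and in 2366 the 24 h and 48 h arrays did not overlap. Both counts follow largely from the calls, which were made on the same arrays. Over all tested genes 30.8% did not overlap, and the median change was -0.0092. The change was smallest in pair 3 for 1965 of the called genes. Called rises had medians of 0.521, 0.519 and 0.346 in pairs 1, 2 and 3, and called falls -0.558, -0.476 and -0.366. Without treated 48 h replicate 3, 1953 genes (18.3%) were higher and 2042 (19.1%) lower, and 1377 of the rises and 1586 of the falls were shared with the full data. Single arrays moved the count of rises by more than 1.5 times in 4 cases. It was 980 and 763 without 24 h replicates 1 and 2, and 932 and 793 without 48 h replicates 1 and 2. The falls were then 1036, 1032, 1136 and 1120. Of the called genes, 653 rises and 833 falls passed whichever of the 6 treated arrays was left out. With the replicate number not used as a block, 597 rose and 538 fell.

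The transcription factors ATF3, DDIT3 and ATF4 of the amino acid stress response were higher at 48 h. ATF3, a stress-induced member of the ATF family, stood at log2 values of 5.42, 5.05 and 5.92 at 24 h and at 11.84, 11.25 and 8.49 at 48 h, in order of replicate number. All 48 h arrays lay above all 24 h arrays, and replicate 3 rose least. The change was 33.5-fold (log2 5.07, standard error 0.76, adjusted p = 0.00241), and without treated 48 h replicate 3 it was 6.21 on the log2 scale. DDIT3, which encodes the transcription factor CHOP, went from 8.63, 8.68 and 8.77 to 13.34, 13.12 and 10.99, a 13.8-fold rise (log2 3.79, standard error 0.54, adjusted p = 0.00185). With treated 48 h replicate 3 left out, the folds were 74.2 for ATF3 and 21.6 for DDIT3. ATF4 itself, which is controlled largely at translation, rose 1.59-fold from 12.70, 12.77 and 12.82 to 13.44, 13.51 and 13.32 (log2 0.67, standard error 0.10, adjusted p = 0.00221). The pair changes of ATF4 were 0.75, 0.74 and 0.51, a narrower spread than the 6.43, 6.20 and 2.57 of ATF3. ATF4 also rose in controls, by 0.44 on the log2 scale (adjusted p = 0.0148), and the difference did not pass (adjusted p = 0.308). For DDIT3 the difference was 2.23 and did not pass with all arrays (adjusted p = 0.0978). Without treated 48 h replicate 3 the DDIT3 difference was 2.87 (adjusted p = 0.0159).

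**Figure D1:**
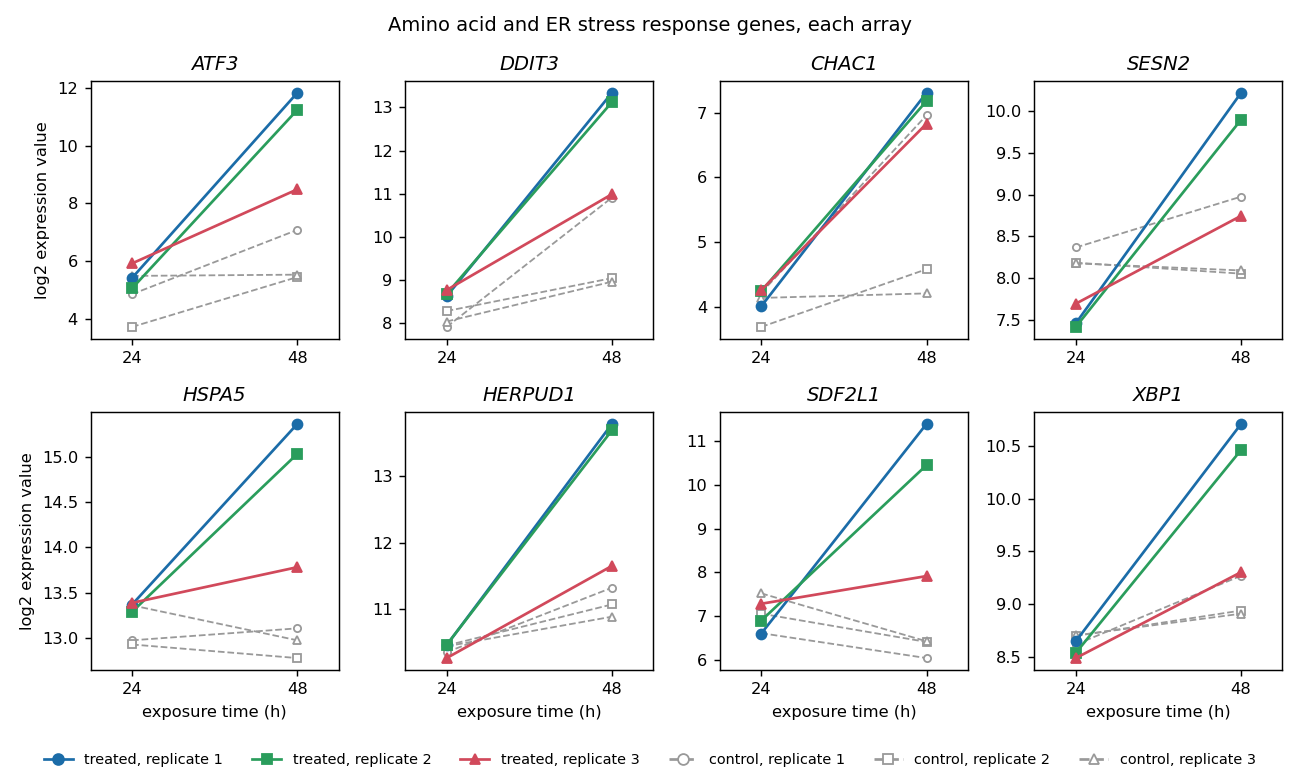
Deposited log2 values (vertical axis) after 24 and 48 h (horizontal axis) of 8 stress response genes, with lines joining arrays of the same replicate number, coloured for treated and dashed gray for control cells. Treated replicate 3 (red triangles) ends below replicates 1 and 2 in every panel, for example at 8.49 for ATF3 against 11.84 and 11.25, and the gap is smallest for CHAC1 (6.83 against 7.31 and 7.18).

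The list of ATF4 and CHOP factors and regulators held 19 tested members, of which 15 rose and 0 fell, beside 14.2% and 16.4% of all genes. Its median change was 0.93, against -0.0092 over all genes, and was 1.19, 1.00 and 0.51 in pairs 1, 2 and 3. Without treated 48 h replicate 3, 14 rose. CHAC1, an enzyme that degrades glutathione, went from 4.004, 4.24 and 4.25 to 7.31, 7.18 and 6.83 (log2 2.94, standard error 0.50, adjusted p = 0.00394). Its rise in pair 3, 2.58, was near the 3.31 and 2.95 of the other pairs, unlike that of ATF3. SESN2, a sestrin that restrains mTORC1 when leucine is low, went from 7.45, 7.41 and 7.69 to 10.22, 9.90 and 8.75 (log2 2.11, adjusted p = 0.00181). TRIB3, a pseudokinase that binds ATF4, rose 2.91-fold (adjusted p = 0.00141) and the repressor NFIL3 2.67-fold (adjusted p = 0.00216). The 4 tested members that did not pass were ATF5 and the eIF2 kinases EIF2AK1, EIF2AK2 and EIF2AK4, with changes from -0.22 to 0.15.

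INHBE, GDF15 and VEGFA, which encode secreted proteins, also rose. INHBE, a subunit of activin E, went from 6.20, 5.89 and 4.53 to 10.57, 10.63 and 8.58, a 21.001-fold rise (log2 4.39, standard error 0.36, adjusted p = 0.000283). The absolute level of replicate 3 was lowest at both times, so that its change of 4.06 was near the 4.38 and 4.75 of the other pairs. GDF15, a circulating stress cytokine, went from 11.39, 11.52 and 11.29 to 14.12, 13.69 and 13.15 (log2 2.25, standard error 0.22, adjusted p = 0.000537). VEGFA, the endothelial growth factor, rose 3.27-fold, with pair changes of 2.16, 1.85 and 1.12 (adjusted p = 0.00271). All 3 genes had no overlap between 24 h and 48 h arrays. INHBE and GDF15 also rose in controls, by 2.31 and 0.84 on the log2 scale (adjusted p = 0.00349 and 0.0275). Their rises were larger in treated cells by the test of the difference (2.08 and 1.41, adjusted p = 0.0454 and 0.0362).

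Genes of amino acid supply rose in part. Among 13 tested genes of serine, asparagine, proline and one-carbon synthesis, a list that also held ATF4, 6 rose and 0 fell (median 0.56). CTH, which makes cysteine from cystathionine, went from 8.07, 8.05 and 7.63 to 11.91, 11.50 and 9.59 (log2 3.09, standard error 0.37, adjusted p = 0.000941). The mitochondrial folate enzyme MTHFD2 rose 2.32-fold (adjusted p = 0.00678) and the serine enzyme PSPH 1.87-fold (adjusted p = 0.00601). The median change of this list was 0.81, 0.67 and 0.03 in pairs 1, 2 and 3, and 9 members rose without treated 48 h replicate 3. Of 14 tested amino acid transporters 6 rose and 0 fell (median 0.38). The cystine importer SLC7A11 rose 6.81-fold, from 8.50, 8.48 and 8.34 to 11.58, 11.87 and 10.18 (adjusted p = 0.00116). Its partner chain SLC3A2 rose 3.63-fold (adjusted p = 0.00444), the cationic transporter SLC7A1 2.35-fold (adjusted p = 0.00608) and the neutral transporter SLC38A2 1.31-fold (adjusted p = 0.00403).

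Of 17 cytosolic aminoacyl-tRNA synthetases, the enzymes that charge tRNA, 8 rose and 1 fell (median 0.35). GARS1, for glycine, went from 11.18, 11.05 and 11.35 to 12.86, 12.23 and 11.60, and CARS1, for cysteine, had pair changes of 1.41, 1.11 and 0.10. Both passed (adjusted p = 0.0128 and 0.0218), but GARS1 was lost without 24 h replicate 1 or 48 h replicate 2 (adjusted p up to 0.0596), and CARS1 without replicate 1 or 2 of either time (adjusted p up to 0.0933). NARS1, for asparagine, rose 1.28-fold (adjusted p = 0.00829) in all such fits. VARS1, for valine, was the member that fell, by 0.52 on the log2 scale (adjusted p = 0.00434). The list's median was 0.65 and 0.39 in pairs 1 and 2 and -0.0040 in pair 3, and 11 members rose without treated 48 h replicate 3.

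ER protein folding genes were higher at 48 h mainly in replicates 1 and 2. Of 22 tested ER chaperones and disulfide enzymes 10 rose and 0 fell, with a median of 0.65. By pair the median was 1.08, 0.65 and 0.02, and without treated 48 h replicate 3 the count of rises was 17. HSPA5, the major ER chaperone BiP, stood at 13.37, 13.29 and 13.39 at 24 h and at 15.36, 15.03 and 13.78 at 48 h. Replicate 3 was higher by 0.39, against 1.99 and 1.74. The change was 1.38 (standard error 0.32, adjusted p = 0.0136) with all arrays and 1.91 (adjusted p = 0.000141) without treated 48 h replicate 3. The HSPA5 call was lost when 24 h replicate 1 or 2 or 48 h replicate 1 or 2 was left out (adjusted p up to 0.0628). SDF2L1, a cofactor of ER chaperones, went from 6.60, 6.90 and 7.28 to 11.39, 10.45 and 7.92 (log2 2.99, adjusted p = 0.0147), and its call was lost without 24 h replicate 1 or 2 or 48 h replicate 2 (adjusted p up to 0.0637). DNAJB9, a BiP cochaperone, held in all such fits, going from 9.17, 9.13 and 8.85 to 12.48, 12.14 and 10.02 (log2 2.49, adjusted p = 0.00253). With treated 48 h replicate 3 left out, the fold of SDF2L1 was 17.8 in place of 7.95, and that of DNAJB9 8.75 in place of 5.63. HYOU1, CRELD2 and PDIA4, picked out after their values were seen, were higher by 2.23, 2.27 and 1.66 in pair 1 and lower by 0.24, 0.25 and 0.32 in pair 3, and did not pass with all arrays. Without treated 48 h replicate 3 the log2 changes of HYOU1 and CRELD2 were both 1.75 (adjusted p = 0.000849 and 0.000728).

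Of 20 tested genes of ER-associated degradation and of the ER stress sensors 8 rose and 0 fell, with a median of 0.33 (0.74, 0.26 and 0.05 by pair), and 12 rose without treated 48 h replicate 3. HERPUD1, a membrane component of ER-associated degradation, went from 10.46, 10.47 and 10.27 to 13.78, 13.69 and 11.65 (log2 2.64, standard error 0.38, adjusted p = 0.00208). ERN1, the gene of the sensor IRE1, went from 6.54, 6.19 and 6.28 to 9.71, 9.50 and 7.29 (log2 2.50, adjusted p = 0.00494). With treated 48 h replicate 3 left out, the fold of HERPUD1 was 9.74 in place of 6.24, and that of ERN1 9.08 in place of 5.64. XBP1, whose RNA IRE1 splices, rose 3.03-fold with pair changes of 2.06, 1.93 and 0.82 (adjusted p = 0.00271). CREBRF, a regulator linked to this response, rose 1.85-fold with pair changes of 0.80, 0.97 and 0.90 (adjusted p = 0.000952). It rose by a similar amount in controls, 1.88-fold (adjusted p = 0.00119), with a log2 difference of -0.019 (adjusted p = 0.952). Total transcript level on these arrays does not show splicing of XBP1.

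Because the rising genes include textbook targets of ATF4 and of ATF6, their promoters were searched for the letters those factors are known to bind. RefSeq start site windows (GRCh38.p14, 250 bases before the annotated start) were searched on both strands for the amino acid response element core TGATGNAAN and for the ER stress element, CCAAT and CCACG with 9 bases between them. The core was present in 3.18% of 27305 windows and in 1.25% of the 8851 windows of tested genes. It was present in 5 of the 31 amino acid stress genes that rose and had a window (34 rose), and in 1 of 18 ER stress genes that rose. The whole ER stress element was present in 0.0806% of all windows and in 0.147% of those of tested genes. It was present in 4 of those 18 and in 0 of those 31. The lists hold genes known from such elements, so these counts describe the lists. The stretches below are read 5′ to 3′ on the gene's strand, with the matching letters in capitals. The first 4 hold the core, on the reverse strand in CHAC1 and HERPUD1, and the last 4 hold the whole ER stress element. CHAC1 (plus strand) is at chr15:40953231-40953299, HERPUD1 (plus) at chr16:56931935-56932003, ATF3 (plus) at chr1:212565186-212565254 and ASNS (minus), the asparagine synthetase gene, at chr7:97872438-97872506. HSPA5 (minus) is at chr9:125241361-125241439, XBP1 (minus) at chr22:28800573-28800651, HSP90B1 (plus) at chr12:103930186-103930264 and CANX (plus) at chr5:179698748-179698826. All lie upstream of the annotated start.
CHAC1: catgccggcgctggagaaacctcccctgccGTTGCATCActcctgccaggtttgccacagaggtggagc
HERPUD1: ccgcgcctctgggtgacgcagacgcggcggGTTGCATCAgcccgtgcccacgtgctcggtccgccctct
ATF3: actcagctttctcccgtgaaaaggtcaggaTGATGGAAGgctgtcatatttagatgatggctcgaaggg
ASNS: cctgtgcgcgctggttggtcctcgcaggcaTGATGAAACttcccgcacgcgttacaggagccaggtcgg
HSPA5: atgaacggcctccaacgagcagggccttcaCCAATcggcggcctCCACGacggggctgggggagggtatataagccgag
XBP1: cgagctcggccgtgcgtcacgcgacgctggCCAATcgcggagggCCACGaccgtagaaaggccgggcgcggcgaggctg
HSP90B1: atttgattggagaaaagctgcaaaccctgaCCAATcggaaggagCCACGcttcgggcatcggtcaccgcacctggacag
CANX: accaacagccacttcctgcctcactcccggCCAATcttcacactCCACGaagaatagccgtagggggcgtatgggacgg

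The changes of these 8 genes varied. ASNS had pair changes of 2.68, 2.00 and 0.51 (adjusted p = 0.0118, and up to 0.0558 without 24 h replicate 1 or 48 h replicate 2). The ER chaperone gene HSP90B1 had pair changes of 1.34, 0.65 and 0.14 (adjusted p = 0.0426). The lectin chaperone CANX rose by 0.27 on the log2 scale (adjusted p = 0.0353). The calls of HSP90B1 and CANX held only without treated 48 h replicate 3, and leaving out any other treated array ended them (adjusted p up to 0.143 and 0.133). A match of letters is a description of the window, not a measured binding site.

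Few cytosolic folding genes changed in treated cells with all arrays. Of 18 tested heat shock chaperones 1 rose and 1 fell, with a median of -0.07. Without treated 48 h replicate 3, 1 rose and 5 fell. DNAJB4 rose 1.42-fold (adjusted p = 0.00809) and DNAJB1, a cochaperone of HSP70, fell by 0.45 on the log2 scale (adjusted p = 0.0231). The DNAJB1 call was lost without replicate 1 or 2 of either time (adjusted p up to 0.10). Of 29 proteasome genes 1 rose and 2 fell (median -0.08). The 2 that fell, PSMC3 and PSMD3, did so by 0.29 and 0.31. The gene that rose, NFE2L1, is not a subunit but the factor that drives proteasome genes. The calls of PSMD3 and NFE2L1 were lost without replicate 1 or 2 of either time (adjusted p up to 0.0873 and 0.148). In controls 0 of the 29 proteasome genes rose and 17 fell (median -0.29). By the test of the difference 3 of the 29 had a higher change in treated cells and 0 a lower one, beside 3.41% and 3.95% of all genes. Without treated 48 h replicate 3 these counts were 7 and 0, beside 12.9% and 10.5% of all genes.

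**Figure D2:**
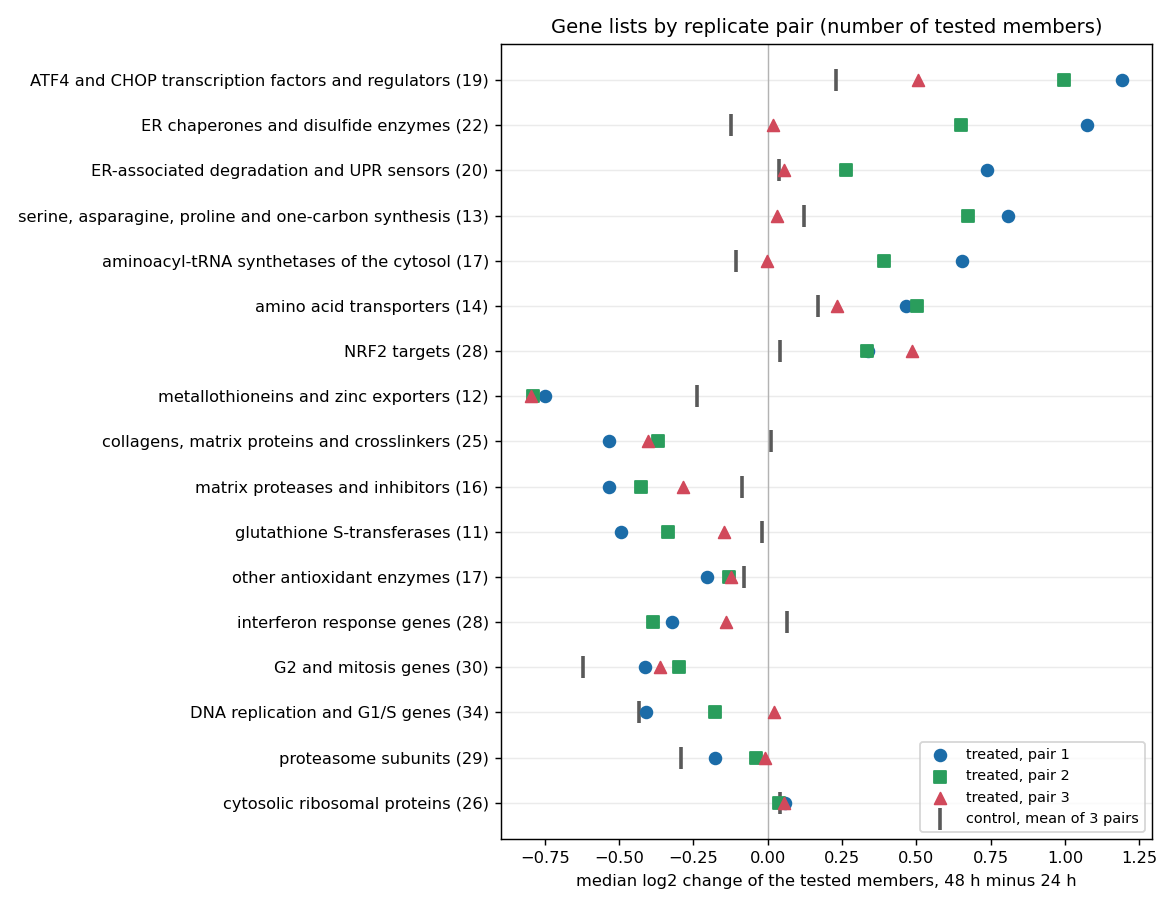
Median log2 change from 24 to 48 h (horizontal axis) of the tested members of 17 gene lists, with a symbol for each treated replicate pair and a gray bar for controls. In the amino acid and ER stress lists pair 3 lies to the left of pairs 1 and 2 (0.02 for ER chaperones, against 1.08 and 0.65), while in the metallothionein list all 3 pairs lie between -0.80 and -0.75.

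Many NRF2 targets were higher at 48 h than at 24 h, and the median change was largest in pair 3. Of 28 tested targets 16 rose and 0 fell, and the same counts held without treated 48 h replicate 3. The median change was 0.39 and by pair 0.34, 0.34 and 0.49. NQO1, the quinone reductase, went from 12.66, 12.80 and 12.27 to 13.58, 13.52 and 13.29 (log2 0.89, standard error 0.13, adjusted p = 0.00196). The 48 h arrays all lay above the 24 h arrays, with pair changes of 0.92, 0.73 and 1.02. TXNRD1, the thioredoxin reductase, went from 13.08, 13.35 and 12.94 to 13.96, 13.86 and 13.59 (log2 0.68, adjusted p = 0.00102). HMOX1, the inducible heme oxygenase, went from 9.98, 9.91 and 10.06 to 10.88, 10.21 and 10.78 (log2 0.64, adjusted p = 0.0109). MAFG, a small MAF partner of NRF2, rose 1.69-fold (adjusted p = 0.00111), and SQSTM1, an autophagy receptor that binds KEAP1, 1.72-fold (adjusted p = 0.00231). GCLC, the catalytic subunit of glutathione synthesis, rose 2.54-fold with pair changes of 1.79, 1.34 and 0.90, and AKR1C1, an aldo-keto reductase with near-identical paralogs, 2.51-fold with pair changes of 1.11, 1.02 and 1.86. Both were picked after their values were seen. The modifier subunit GCLM was higher by 0.29 and did not pass (adjusted p = 0.0844).

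Part of the other antioxidant and conjugating enzymes fell. Among 17 further antioxidant enzymes 1 rose and 8 fell (median -0.26), and among 11 glutathione S-transferases 0 rose and 5 fell (median -0.38). TXNRD2, the mitochondrial thioredoxin reductase, fell by 0.70 on the log2 scale (adjusted p = 0.00276), MSRB2, a methionine sulfoxide reductase, by 0.55 (adjusted p = 0.0027), PRDX2, a peroxiredoxin, by 0.44 (adjusted p = 0.00487) and GPX8 by 0.43 (adjusted p = 0.00543). A further probe set of PRDX2 moved the other way. GSTA4, which conjugates lipid aldehydes, went from 8.23, 8.35 and 8.13 to 7.31, 7.62 and 7.58 (log2 -0.73, adjusted p = 0.00107), and GSTK1 fell by 0.44 (adjusted p = 0.00596). DCXR, a carbonyl reductase among the genes with the smallest p, went from 8.87, 8.50 and 8.88 to 7.63, 7.45 and 7.90 (log2 -1.09, standard error 0.07, adjusted p = 0.000212).

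All 7 tested genes of the MT1 and MT2 metallothioneins fell, by nearly the same amount in each pair. MT2A went from 14.42, 14.35 and 14.51 to 13.63, 13.50 and 13.69 (log2 -0.82, standard error 0.06, adjusted p = 0.000212). MT1M showed the largest change, from 9.71, 9.02 and 9.71 to 7.55, 7.32 and 7.85 (log2 -1.91, standard error 0.10, adjusted p = 0.000154). MT1X fell by 0.86 and MT1F by 1.00 on the log2 scale, and the 24 h and 48 h arrays of these 4 genes did not overlap. Metallothionein genes are close paralogs, so probe sets may read more than 1 of them, and the separate values are uncertain. The whole list, which also holds zinc transporters and MTF1, had 12 tested members. The zinc importer SLC39A10 fell with them (8 falls in all), and SLC30A1, the zinc exporter, was the member that rose, by 0.36. Its call held only with 48 h replicate 1 left out and was lost without any other treated array (adjusted p up to 0.087). The median of the list was -0.78, and by pair -0.75, -0.79 and -0.80.

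**Figure D3:**
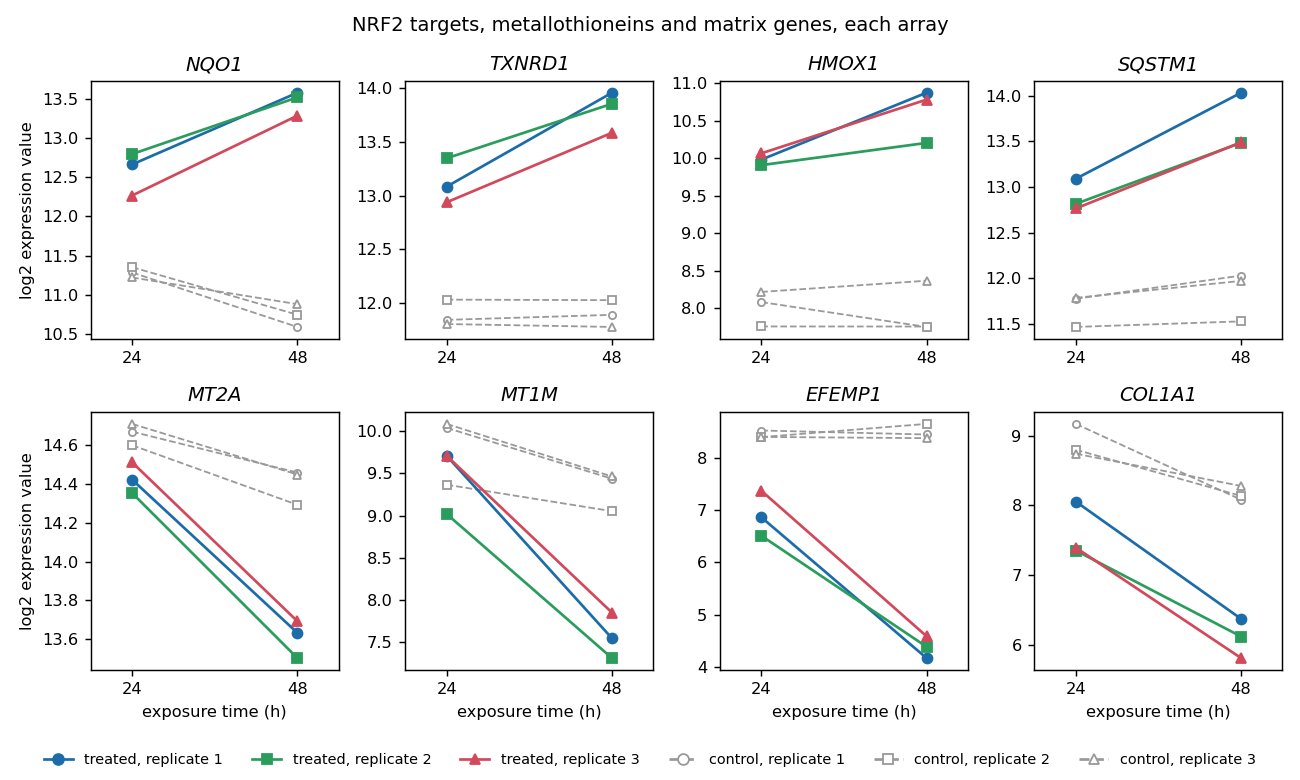
Log2 values (vertical axis) after 24 and 48 h (horizontal axis) of 4 NRF2 targets, 2 metallothioneins and 2 matrix genes, drawn as in the plot of stress genes. The 3 treated lines run close to parallel in most panels, including replicate 3 (red triangles), and NQO1 rises in treated cells (0.89) while it falls in controls (-0.55).

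Extracellular matrix genes declined. Of 25 tested genes for collagens, matrix proteins and crosslinkers 0 rose and 16 fell, with a median of -0.44 (-0.53, -0.37 and -0.40 by pair), and 15 fell without treated 48 h replicate 3. EFEMP1, which encodes fibulin-3, went from 6.86, 6.51 and 7.37 to 4.17, 4.38 and 4.59 (log2 -2.53, standard error 0.18, adjusted p = 0.000212). COL1A1, a chain of type I collagen, went from 8.05, 7.35 and 7.39 to 6.37, 6.12 and 5.81 (log2 -1.50, standard error 0.16, adjusted p = 0.0006). TGFBI, a secreted adhesion protein, fell by 1.38 (adjusted p = 0.000525) and LOXL1, a crosslinking oxidase of elastic fibres, by 1.24 (adjusted p = 0.0012). CCDC80, a matrix protein outside that list, fell by 2.01 (adjusted p = 0.000689). In each of these 5 genes the arrays of the 2 times did not overlap. Of 8 fibroblast markers 3 passed the filter, COL1A1, DCN and LUM, and all 3 fell. These 3 encode matrix proteins, so their fall is not separate from that of the matrix genes. The other markers, COL1A2, COL3A1, PDGFRA, PDGFRB and THY1, were below the filter. The summed level of the 8 markers ran from 11.8 to 12.3 at 24 h and from 10.6 to 11.1 at 48 h on the log2 scale. The part of a change in cell makeup was not tested.

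Proteases, adhesion receptors and injury-linked genes followed. Of 16 tested matrix proteases and inhibitors 4 rose and 8 fell. MMP1, interstitial collagenase, went from 7.31, 6.91 and 7.30 to 3.00, 3.02 and 4.61 (log2 -3.63, standard error 0.47, adjusted p = 0.0012). Values near 3 are at the floor of these arrays, so the size of this change depends on the background correction. MMP7, matrilysin, fell by 1.76 (adjusted p = 0.00166), and PLAUR, the urokinase receptor, by 1.19 with pair changes of -1.11, -1.28 and -1.19 (adjusted p = 0.000212). The 4 that rose, ADAM9, ADAM10, ADAM17 and ADAMTS1, did so by 0.33 to 0.50, and of these only ADAM17 passed whichever treated array was left out. ADAM10 was lost without replicate 1 or 2 of either time, ADAM9 without 24 h replicate 3 or 48 h replicate 1 or 2, and ADAMTS1 without replicate 2 of either time or 48 h replicate 1. Of 16 tested integrins and laminins 1 rose and 5 fell, among them ITGA6 (by 0.92, adjusted p = 0.000935), ITGA3 (by 0.76, adjusted p = 0.000988) and LAMA5 (by 0.58, adjusted p = 0.00799). SDC3, a membrane heparan sulfate proteoglycan, went from 6.29, 6.01 and 6.35 to 4.47, 4.37 and 4.61 (log2 -1.73, standard error 0.10, adjusted p = 0.000183).

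Of 16 tested tubular injury markers 1 rose and 7 fell. SOX9, a transcription factor of repairing tubules, went from 7.75, 7.53 and 7.74 to 5.22, 5.83 and 5.84 (log2 -2.04, adjusted p = 0.000941). HAVCR1, which encodes the injury marker KIM-1, went from 10.69, 10.92 and 11.16 to 10.15, 10.59 and 10.59 (log2 -0.48, adjusted p = 0.00763). CD44, the hyaluronan receptor, fell by 0.78 (adjusted p = 0.000685) and VIM, vimentin, by 0.39 (adjusted p = 0.0021). In controls 2 of the 16 markers rose and 6 fell, and CD44 fell by 0.71 (adjusted p = 0.00122). The CD44 difference between treated and control changes did not pass (adjusted p = 0.72). Of 20 tested TGF-beta and YAP-linked genes 3 rose and 7 fell. The smooth muscle gene TAGLN fell by 2.67 to a 48 h level between 2.99 and 3.18, at the floor, and LTBP2, a latent TGF-beta binding protein, by 1.46 (adjusted p = 0.00102). BAMBI, a pseudoreceptor that limits TGF-beta signals, rose 1.92-fold (adjusted p = 0.00124).

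Cell junction genes were called at a share near or below that of all genes (30.7%). Of 18 tight junction genes 1 rose and 4 fell. CLDN2, the cation channel claudin of the proximal tubule, went from 10.42, 10.26 and 9.91 to 8.80, 9.22 and 9.38 (log2 -1.06, adjusted p = 0.00797), and CGN, cingulin, fell by 0.92 (adjusted p = 0.0124). Of 16 cadherin, catenin and desmosome genes 0 rose and 3 fell. These were the kidney cadherin CDH6 (by 1.07, adjusted p = 0.00234), the neural cadherin CDH2 (by 0.62, adjusted p = 0.00153) and sciellin, SCEL, a protein of the cornified envelope, which went from 8.10, 8.34 and 7.69 to 6.50, 6.39 and 5.07. Of 6 keratins KRT8 fell by 0.64 (adjusted p = 0.00225) and the other 5 did not pass.

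Most G2 and mitosis genes fell in treated cells and in controls. Of 30 tested G2 and mitosis genes 0 rose and 21 fell (median -0.35), against 29 falls in controls (median -0.62). By pair the treated median was -0.41, -0.30 and -0.36, and 17 fell without treated 48 h replicate 3. KIF20A, a mitotic kinesin, went from 11.18, 11.29 and 11.21 to 10.07, 10.38 and 10.43 (log2 -0.93, adjusted p = 0.000283). CCNA2, cyclin A2, went from 11.49, 11.69 and 11.76 to 10.78, 11.07 and 11.17 (log2 -0.64, adjusted p = 0.000811). AURKB fell by 0.65 (adjusted p = 0.00166) and UBE2C by 0.57 (adjusted p = 0.000998). Of 34 DNA replication and G1/S genes 2 rose and 12 fell, with medians by pair of -0.41, -0.18 and 0.02. In controls 0 rose and 20 fell, and the change was higher in treated than in control cells for 5 of the 34 and lower for 0 by the test of the difference. CCNE1, cyclin E1, fell by 0.88 (adjusted p = 0.000839), UHRF1 by 0.66 (adjusted p = 0.0028) and POLA1 by 0.48 (adjusted p = 0.00364).

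Genes known as p53 targets were divided, with 6 of 23 tested members higher and 7 lower (median -0.0043). The rises included GDF15 and SESN2, which ATF4 also drives, and GADD45A, which went from 9.69, 9.46 and 9.75 to 11.34, 11.34 and 10.74 (log2 1.51, adjusted p = 0.00122). CDKN1A, the cell cycle inhibitor p21, went from 10.37, 10.29 and 10.16 to 10.83, 10.65 and 10.64 (log2 0.44, adjusted p = 0.0447). The CDKN1A call was lost without 24 h replicate 1 or 3 or 48 h replicate 1 or 2 (adjusted p up to 0.159). TP53I3, a quinone oxidoreductase induced by p53, fell by 0.89 (adjusted p = 0.000878). Of 22 genes of the BCL2 family and caspases 3 rose and 6 fell. BCL2L2 rose 1.75-fold (adjusted p = 0.00504), while the death effector BAK1 fell by 0.66 (adjusted p = 0.00201) and the survival gene BCL2L1 by 0.54 (adjusted p = 0.00733). Of 9 histone genes 0 rose and 4 fell, among them H2AX (by 0.79, adjusted p = 0.000687). Without treated 48 h replicate 3, 7 histone genes fell. Of 28 excision repair genes 2 rose (7.14%) and 4 fell (14.3%), with LIG1, DNA ligase 1, lower by 0.56 (adjusted p = 0.00438). Of 17 homologous recombination and Fanconi genes 2 rose and 2 fell (11.8% each). In both lists the treated shares were below those of all genes, 14.2% higher and 16.4% lower. Controls differed, with 3 rises and 8 falls among the excision repair genes and 0 rises and 11 falls among the 17 homologous recombination and Fanconi genes. By the test of the difference 5 of those 17 had a higher change in treated cells and 0 a lower one. Over all genes 3.41% were higher and 3.95% lower by that test.

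Metabolic lists are read here against 14.2% of all genes higher and 16.4% lower. Of 27 genes of glycolysis and the hypoxia response 9 rose and 1 fell (median 0.10). HK2, hexokinase 2, rose 1.65-fold (adjusted p = 0.00661) and PFKFB3, which makes an activator of phosphofructokinase, 1.45-fold (adjusted p = 0.00518), while the collagen hydroxylase gene P4HA2 fell by 0.69 (adjusted p = 0.000505). Of 35 oxidative phosphorylation subunits 1 rose and 9 fell (median -0.11), among them ATP5F1D (by 0.55, adjusted p = 0.00189) and NDUFB10 (by 0.47, adjusted p = 0.00271). Of 17 fatty acid oxidation genes 0 rose and 3 fell. ACADVL, the very long chain acyl-CoA dehydrogenase, went from 10.03, 9.80 and 10.12 to 9.10, 8.83 and 9.35 (log2 -0.89, standard error 0.09, adjusted p = 0.000595). Of 18 tricarboxylic acid cycle genes 1 rose and 3 fell, with IDH3G lower by 0.38 (adjusted p = 0.00604). Of 17 sterol genes 6 rose and 4 fell. STARD4, a cholesterol carrier, rose 2.70-fold with pair changes of 1.77, 1.67 and 0.86 (adjusted p = 0.00204), and FDPS, farnesyl diphosphate synthase, fell by 0.45 (adjusted p = 0.00237). Of 15 fatty acid synthesis genes 2 rose and 1 fell, with the lipid droplet gene PLIN2 up 1.51-fold (adjusted p = 0.00214).

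Cytosolic ribosomal protein genes gave a quiet background. Of 26 tested cytosolic ribosomal protein genes 0 rose and 0 fell, with a median of 0.05. Of 33 mitochondrial ribosomal proteins 3 rose and 10 fell (median -0.08), with MRPL11 lower by 0.43 (adjusted p = 0.00369). In controls 0 of these rose and 15 fell (median -0.22). Of 26 ribosome biogenesis genes 4 rose and 2 fell (median 0.07), and 9 rose without treated 48 h replicate 3. Their controls had 0 rises and 11 falls (median -0.26). By the test of the difference 7 of the 26 had a higher change in treated cells and 0 a lower one, beside 3.41% and 3.95% of all genes. Without treated 48 h replicate 3 these counts were 13 and 0, beside 12.9% and 10.5% of all genes. WDR12 rose 1.31-fold (adjusted p = 0.00461), although 1 of its 3 expressed probe sets moved the other way. Of 33 autophagy and lysosome genes 8 rose and 2 fell, and without treated 48 h replicate 3 the counts were 12 and 4. GABARAPL1, an ATG8 family member, rose 1.48-fold (adjusted p = 0.00854). NPC1, the lysosomal cholesterol exporter, rose 1.73-fold (adjusted p = 0.00123), with 1 of 2 probe sets moving the other way.

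Interferon-linked genes were lower at 48 h in part, with 0 of 28 tested higher and 11 lower (median -0.22). OAS3, an antiviral nucleotidyltransferase, went from 7.34, 7.48 and 7.33 to 6.14, 6.33 and 6.48 (log2 -1.06, adjusted p = 0.000687). PSMB9, an immunoproteasome subunit, fell by 0.91 (adjusted p = 0.000988), ISG15 by 0.71 (adjusted p = 0.00359) and IFI35 by 0.60 (adjusted p = 0.0013). Of 17 chemokine and cytokine genes 0 rose and 5 fell, and without treated 48 h replicate 3 the counts were 3 and 6. IL32 went from 10.40, 9.85 and 10.94 to 9.18, 8.55 and 9.56 (log2 -1.30, standard error 0.09, adjusted p = 0.000212), with every replicate lower by 1.22 to 1.38. Of 9 eicosanoid enzymes 0 rose and 2 fell, and HPGD, which inactivates prostaglandins, fell by 1.07 (adjusted p = 0.00117).

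Among growth signal genes, 6 of 15 DUSP and Sprouty feedback genes rose and 1 fell (median 0.36; 0.20, 0.38 and 0.35 by pair). DUSP5, a nuclear ERK phosphatase, went from 10.72, 10.53 and 10.98 to 11.87, 11.56 and 11.66 (log2 0.96, adjusted p = 0.00153), and DUSP7 fell by 0.60 (adjusted p = 0.00635). Of 17 immediate early genes 4 rose, ATF3 among them, and 3 fell, with the AP-1 subunit FOSL1 lower by 1.03 (adjusted p = 0.00601). FOSL1 fell by 2.01 in controls (adjusted p = 0.000775). The difference, 0.99, did not pass with all arrays (adjusted p = 0.0632), and was 1.17 without treated 48 h replicate 3 (adjusted p = 0.0187). Of 7 EGF receptor and ligand genes 2 rose and 2 fell, and without treated 48 h replicate 3 the counts were 5 and 1. EGF went from 4.96, 4.85 and 5.05 to 5.47, 6.20 and 5.70 (adjusted p = 0.00572) and TGFA fell by 0.43 (adjusted p = 0.00272). Of 18 ion, water and bicarbonate transport genes 2 rose and 0 fell, against 7 rises and 0 falls in controls. The 2 were the chloride transporter CLCN5 (1.37-fold, adjusted p = 0.00508) and FXYD2, a sodium pump subunit (1.43-fold, adjusted p = 0.00389). Both rose more in controls, by 1.09 and 1.07 on the log2 scale against 0.45 and 0.52. By the test of the difference their change was lower in treated cells (adjusted p = 0.0210 and 0.0357). For FXYD2 1 of 2 expressed probe sets moved the other way. Of 6 kidney transcription factors TFCP2L1 rose 1.46-fold (adjusted p = 0.00972), although 1 of its 2 expressed probe sets moved the other way.

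Time in culture changed many genes without Kbr. In controls 984 genes (9.23%) were higher and 1420 (13.3%) lower at 48 h. In both treated and control cells 363 genes rose, which is 23.9% of the treated rises and 36.9% of the control rises, and 623 fell, which is 35.5% and 43.9% of the falls. TXNIP, which binds thioredoxin and limits glucose uptake, fell in both. In treated cells it went from 6.83, 7.36 and 8.001 to 3.43, 3.47 and 3.43 (log2 -3.95, standard error 0.46, adjusted p = 0.000839), and in controls from 9.45, 9.87 and 9.19 to 4.67, 6.74 and 7.18 (log2 -3.31, adjusted p = 0.00208). The treated 48 h arrays lay below a log2 value of 4, where the background correction shapes the size of a change. The other 5 tested genes of the alpha-arrestin and MondoA list did not pass in treated cells. SLN, sarcolipin, fell by 3.89 in treated cells and by 3.09 in controls, MMP1 by 3.63 and 3.12, and TM4SF4 by 3.09 and 2.18. Treated 48 h values of these 3 genes reached the array floor (2.99 and 3.00 in replicates 1 and 2 for SLN, 2.50 to 2.78 for TM4SF4), so the sizes are not set against those of controls. DPYSL3 fell by 1.81 in each. Some falls given above also met falls in controls, and their differences did not pass. Control falls were 0.70 for P4HA2, 0.66 for H2AX, 0.52 for BCL2L1 and 0.51 for KRT8 (adjusted p of the difference 0.97, 0.501, 0.954 and 0.563). RAB17, a GTPase of epithelial transport, rose 3.09-fold, from 7.10, 7.29 and 7.17 to 8.79, 8.73 and 8.92 (adjusted p = 0.000212), and by 1.94 on the log2 scale in controls. PLA1A rose by 1.55 and 1.73 and PELI2 by 1.60 and 1.44 in treated and control cells.

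**Figure D4:**
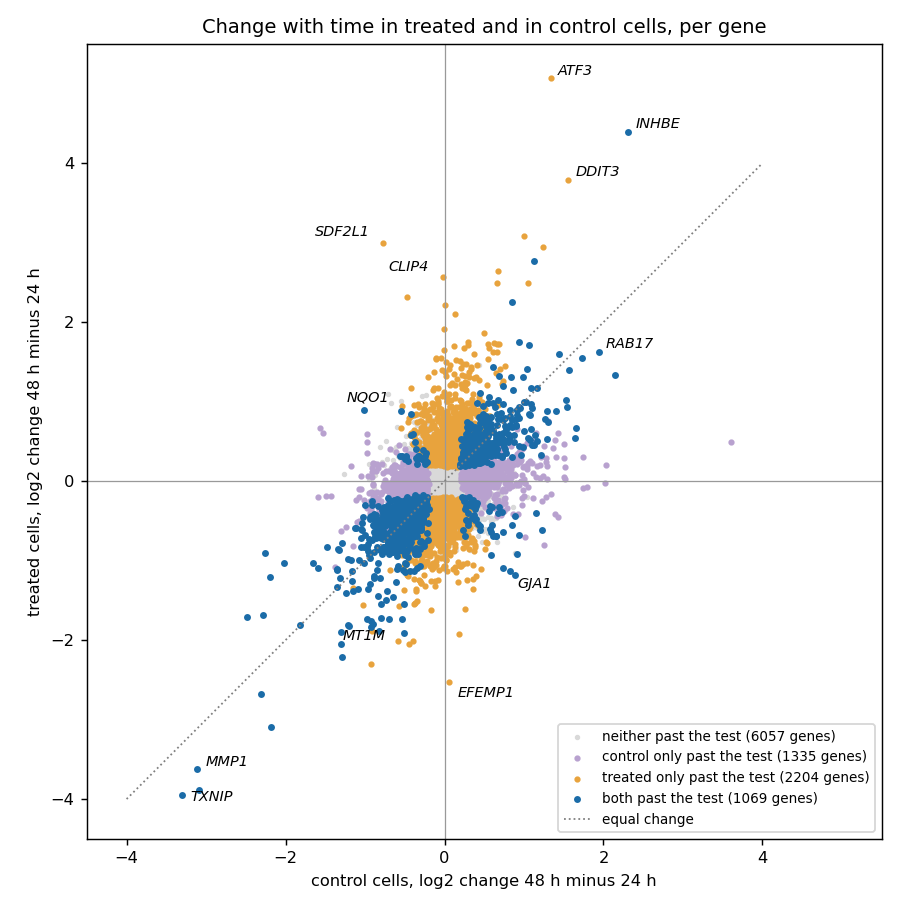
Log2 change from 24 to 48 h of each of 10665 tested genes in control cells (horizontal axis) and treated cells (vertical axis), coloured by which test it passed. Of these genes 2204 passed only in treated cells, 1335 only in controls and 1069 in both. ATF3 and INHBE lie far above the line of equal change and EFEMP1 far below it. Treated 48 h values of TXNIP and MMP1 reached or neared the array floor, so their distance from the line is not read.

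Passing in one kind of cell and not in the other does not show a difference, so the difference between the changes was tested. It was higher in treated than in control cells for 364 genes (3.41%) and lower for 421 (3.95%). Of the genes called in treated cells 518 passed this test, 217 rises with a higher and 284 falls with a lower change than controls among them. The count of 785 rested on single arrays and on the block. Without treated 24 h replicates 1, 2 and 3 it was 284, 143 and 174, without treated 48 h replicates 1 and 2 it was 265 and 132, and without treated 48 h replicate 3 it was 2499. Without the replicate block it was 15. Among NRF2 targets 10 of 28 tested had a higher change than controls, among collagens and matrix genes 9 of 25 a lower one, and among metallothioneins and zinc genes 8 of 12 a lower one. In the ATF4 and CHOP list 1 of 19 passed, SESN2 (difference 1.97, adjusted p = 0.0323), and in the ER chaperone list 1 of 22. The differences for ATF3, 3.73 (adjusted p = 0.0674), and HSPA5, 1.51 (adjusted p = 0.0741), did not pass with all arrays. Without treated 48 h replicate 3 they were 4.88 (adjusted p = 0.003) and 2.04 (adjusted p = 0.00108). Without that array 10 of 19 ATF4 and CHOP genes and 16 of 22 ER chaperones had a higher change than controls, beside 12.9% of all genes higher and 10.5% lower. The NRF2 count was then 13 higher, the matrix count 2 higher and 11 lower, and the metallothionein and zinc count 9 lower.

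Genes that passed both in treated cells and in the test of the difference included CLIP4, COPZ2, EFEMP1, CTSO and SEPTIN7P13. CLIP4, a CAP-Gly domain protein, stood at 4.04, 2.90 and 2.88 in treated cells at 24 h and at 6.53, 5.84 and 5.17 at 48 h, while controls stayed between 2.57 and 2.87 (difference 2.59, adjusted p = 0.0186). Control values and the 24 h values of replicates 2 and 3 are at the floor of the arrays, so the size depends on the background correction. COPZ2, a coatomer subunit, fell from 7.35, 7.36 and 7.25 to 5.94, 4.99 and 5.27 in treated cells and changed by 0.18 in controls (difference -2.10, adjusted p = 0.00942). EFEMP1 changed by 0.05 in controls, with values from 8.37 to 8.64 on all 6 arrays (difference -2.58, adjusted p = 0.00942). CTSO, a cathepsin, fell by 1.61 in treated cells (difference -1.87, adjusted p = 0.0105). The pseudogene SEPTIN7P13 rose from 3.07, 2.91 and 3.19 to 5.07, 5.74 and 5.00 (difference 2.21, adjusted p = 0.0118), from values at the floor at 24 h and in all controls, and its probes may also read related septin transcripts.

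In 30 genes a treated rise met a control fall, and in 53 a treated fall met a control rise. NQO1 is among the former, with controls going from 11.28, 11.35 and 11.22 to 10.59, 10.74 and 10.88 (difference 1.44, adjusted p = 0.0105). RND3 rose by 0.85 in treated cells and fell by 0.42 in controls (difference 1.27, adjusted p = 0.0118), and the zinc finger gene ZPR1 rose by 0.58 and fell by 0.42. GJA1, connexin 43, went from 10.16, 10.15 and 11.001 to 8.83, 9.24 and 9.84 in treated cells and from 10.88, 11.16 and 11.57 to 11.74, 12.18 and 12.18 in controls (difference -1.96, adjusted p = 0.00942). FXYD6, a sodium pump regulator, fell by 1.18 and rose by 0.88 (difference -2.06, adjusted p = 0.011). CDC6, a replication licensing factor, rose by 0.89 and fell by 1.01 in controls, but its rise was 1.52, 1.02 and 0.14 by pair. The CDC6 call held only with treated 48 h replicate 3 left out and was lost without any other treated array (adjusted p up to 0.141), as was that of CFB, complement factor B (adjusted p up to 0.188).

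**Figure D5:**
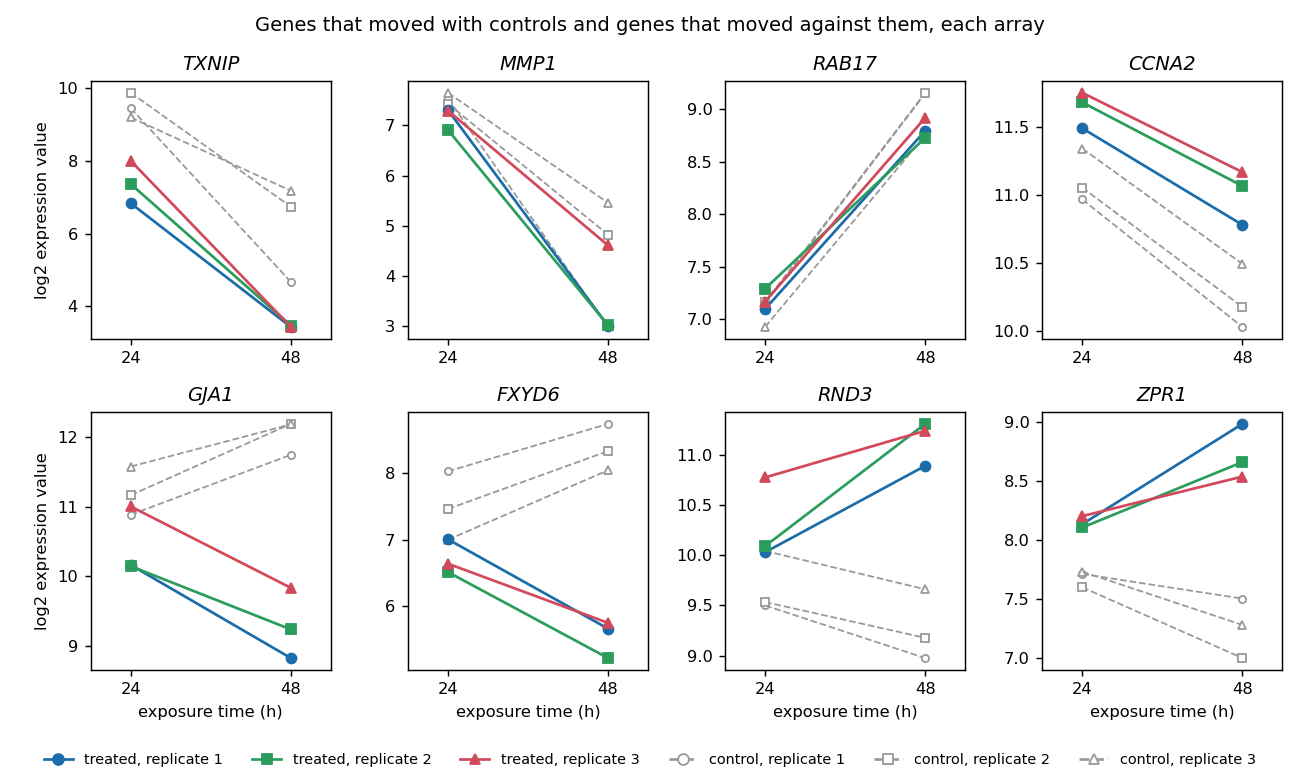
Log2 values (vertical axis) after 24 and 48 h (horizontal axis) of 4 genes that moved with the controls (TXNIP, MMP1, RAB17, CCNA2) and 4 that moved against them (GJA1, FXYD6, RND3, ZPR1), drawn as in the plot of stress genes. Treated and control lines run the same way in the upper row and cross or part in the lower row, where GJA1 falls by 1.13 in treated cells and rises by 0.83 in controls.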

How the data were processed

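Transcripts were measured in 6 treated and 6 control samples of HK-2 cells, with 3 biological replicates per group. The deposited log2 values of 54675 probe sets were made by the authors with GCRMA, per the submitters' processing notes. That method models background from probe sequence and normalizes by quantiles, and its version is not given in the sources used here. Only 41091 probe sets with 1 symbol were used, and 41037 of them matched a current gene table by identifier. The probe set with the highest mean stood for each of 19775 symbols. A gene was tested if 3 or more of the 12 arrays exceeded a log2 value of 4, which left 10665. limma 3.58.1 (lmFit and eBayes, R 4.3.3) fitted 4 group means with the replicate number as a block to all 12 arrays, two-sided, with Benjamini-Hochberg adjustment and a threshold of 0.05. An exact test of 3 against 3 arrays cannot go below 0.10. The labels give the groups the same replicate numbers, and these were taken as pairs after a check: deviations from group means correlated at 0.279 to 0.701 in all 18 same-number pairs. The labels say biological replicates and no more about their source, so p-values measure the spread between these samples, and the number of arrays limits precision.

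The named genes were, among genes past the treated test with all 3 pairs in that direction, the 15 largest rises and falls, up to 4 members of each of 46 lists, the 8 smallest p, and genes by their relation to controls, with 9 genes always. The 46 lists and 8 marker lists, the rule and the genes were chosen with earlier results of these data known. Genes outside the rule that the text names for their values, such as ASNS, HSP90B1 and the members counted in a list, were chosen after their values were seen. The fit was tested on simulated data with independent noise on each array. The simulation held no shared replicate effect and no outlying array, so it does not cover these features of the real data. Alternatives were other blocks, filters, normalizations, probe set summaries, variance models (with statmod 1.5.0), array weights, and fits without single arrays or replicate numbers.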

Additional observations from a re-analysis of the deposited data

Results flagged for a closer look

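The change from 24 to 48 h differed between treated and control cells by the test of the difference itself in 364 genes with a higher and 421 with a lower change under Kbr. Which cause lies behind each was not tested. The differences below are log2 changes in treated cells minus those in controls.

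Higher in treated cells were CLIP4 (2.59), SEPTIN7P13 (2.21), INHBE (2.08), CTH (2.08) and SESN2 (1.97). CLIP4 and SEPTIN7P13 are at the array floor in controls, so the sizes of their differences depend on the background correction. CDC6 (1.90), NQO1 (1.44), RND3 (1.27), ZPR1 (1.00) and EXOG (0.993), a mitochondrial nuclease, rose in treated cells and fell in controls.

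Lower in treated cells were EFEMP1 (-2.58), COPZ2 (-2.10), FXYD6 (-2.06), GJA1 (-1.96) and CTSO (-1.87). CFB (-1.85), TMEM255A (-1.83) and the interferon-induced gene IFI44L (-1.82) fell in treated cells and rose in controls, as did FXYD6 and GJA1, and the IFI44L fall was lost without 24 h replicate 1 or 3 or 48 h replicate 2 (adjusted p up to 0.0562).

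The metallothioneins moved down together relative to controls, with MT1M at -1.39, MT1F at -0.782, MT1G at -0.585, MT2A at -0.561, MT1H at -0.534, MT1E at -0.522 and MT1X at -0.52. These genes are close paralogs and share probes, so the 7 values are not independent.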

How the results depend on the processing

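No named gene changed sign under the alternatives that gave it a value (185 genes with the floor of 6, 188 with the mean of probe sets and 191 otherwise). The named genes had all passed the treated test with every pair moving one way. Their kept signs follow largely from that choice, above all in fits without single arrays, replicate numbers or the block. The kept signs are therefore not read as a test of robustness. Of the named genes, 150 of 191 passed whichever single treated array was left out. With no replicate block 597 genes rose and 538 fell in treated cells, 151 and 200 in controls, 15 passed the test of the difference, and 124 of the named genes passed. Fitted to the treated arrays alone, 503 rose and 651 fell with the block, and 93 and 131 without it. Array weights, whose estimation stopped before reaching its tolerance, gave 3077 and 3009 and a difference count of 3703. The difference count was 492 with no filter and 1276 with an intensity trend and robust variance. Other filters and normalizations, and the mean of probe sets, kept every one of these counts within 1.5 times. Leaving out 1 replicate number or 1 treated array gave 99 to 1953 treated rises, 244 to 2042 treated falls, 137 to 1240 control rises, 126 to 1709 control falls and 0 to 2499 genes in the test of the difference. The 0 came from leaving out replicate number 1 or 2, which removes 4 arrays. Without replicate number 2, 64 of the named genes passed. In those limma fits 1982 and 1430 genes had an unadjusted p below 0.05.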

Other observations

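One control array carried part of the amino acid stress pattern. In control 48 h replicate 1, CHAC1 stood at 6.96 against 4.58 and 4.21 in replicates 2 and 3, DDIT3 at 10.91 against 9.05 and 8.96, and ATF3 at 7.08 against 5.45 and 5.53. TXNIP was lowest there, at 4.67 against 6.74 and 7.18. These values enter the test of the difference, and were picked after they were seen.

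The growth factor gene EREG, picked in the same way, split the treated pairs by direction. It went from 9.13 to 11.69 and from 9.02 to 10.96 in replicates 1 and 2, and from 10.20 to 8.97 in replicate 3, and did not pass with all arrays (adjusted p = 0.245). Without treated 48 h replicate 3 its log2 change was 2.13 (adjusted p = 0.00347).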
